A study of Rattus norvegicus with 9 samples.

Results

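The Wnt ligands of whole bone were compared between the skull and the limb of the rat. Members were the probe sets that the platform's gene table assigned to only one of Wnt16, Wnt2, Wnt4, Wnt5a, Wnt5b, Wnt10b and Wnt11. The rule found 8 probe sets for 6 of the 7 genes, out of 31042 probe sets tested. Wnt2 and Wnt11 had 2 probe sets each, Wnt16, Wnt4, Wnt5a and Wnt5b had 1 each, and Wnt10b was not listed in the table and has no value here. The samples were untreated male rats of the CD strain with a labelled weight of 110, given in grams by the methods, and differed only in the bone taken. Skull was the calvaria (4 arrays) and limb the ulna (5 arrays), which the methods describe as cleaned of soft tissue, although muscle transcripts remained on the limb arrays. Each array held 1 extract from a pool of several rats. The ages of the animals are not given in the sources used here. Titles and source names set the groups. The tissue field of ulna 1, 2, 3 and 4 names calvarial bone instead, and that of ulna 5 names limb bone.

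Wnt proteins are secreted, lipid-modified signals that bind Frizzled receptors. Together with the co-receptors Lrp5 and Lrp6 they stabilise beta-catenin, and through receptors such as Ror2 and Ryk they act without it. In bone the pathway drives osteoblast differentiation and restrains resorption. Wnt16 is known as a ligand of osteoblasts that maintains cortical bone, and Wnt5a as a ligand that acts largely without beta-catenin.

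Wnt16 was the member that differed between the sites, so the 250 bases before its annotated start are shown. The sequence is from RefSeq (GRCr8, chr4:51786478-51786727, plus strand), and capitals mark matches on either strand to the box CCAAT and to the E-box CANNTG.
Wnt16: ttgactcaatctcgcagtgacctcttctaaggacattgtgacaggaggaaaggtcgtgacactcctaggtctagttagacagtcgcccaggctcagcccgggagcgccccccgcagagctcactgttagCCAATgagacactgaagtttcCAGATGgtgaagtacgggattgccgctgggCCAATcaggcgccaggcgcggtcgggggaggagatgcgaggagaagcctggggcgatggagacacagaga
The 2 CCAAT matches begin 121 and 70 bases before the start, and the CANNTG match begins 100 bases before it. Of 33469 RefSeq windows of this length, 34.0% held CCAAT and 65.5% held CANNTG. No match was found to the TCF/LEF letters CTTTGA, which 13.9% of the windows held. The RUNX letters TGTGGT (14.5% of windows) and the TATA box letters TATAAA (12.9%) were not in this window either. All motifs were searched on both strands, and none of the marked matches overlap. The window had 58.8% G and C and 14 CG dinucleotides, against medians of 51.2% and 5 over all windows. Entries for Wnt2, Wnt4, Wnt5a and Wnt11 had 70.4%, 86.4%, 57.2% and 60.0% G and C. Windows for Wnt5b and Wnt10b were not used here.

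Of the 8 probe sets, 1 was lower in the skull and none was higher at an adjusted p below 0.05 (limma, Benjamini-Hochberg over all probe sets) and a 2-fold difference. Of all probe sets tested, 3.36% were lower in the skull and 2.89% were higher by the same rule. The median log2 difference of the members was -0.24, skull minus limb, and that of all probe sets -0.01. The sites were fully apart on 1 of the 8, and on 21.2% of all probe sets. Signals are given in scaled units, with each array set to a common median. A level that a transcript absent from the sample can reach was taken from 3 bacterial tryptophan control probe sets, whose highest signal was 8.34. Other probe sets can have a higher background, so a signal above this level does not by itself show expression. Of the 8 member probe sets, 3 lay above that level on every array, 4 on some arrays and 1 on none.

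**Figure D1:**
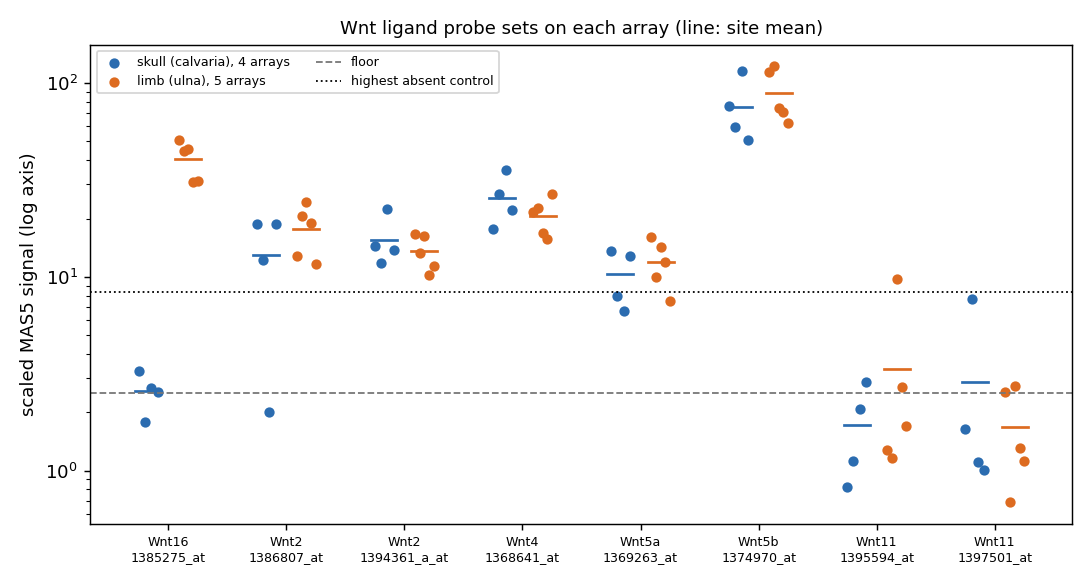
Scaled signal (log axis) of the 8 Wnt ligand probe sets on the 4 skull (blue) and 5 limb (orange) arrays, with lines at the site means, the floor of 2.51 (dashed) and the highest absent control, 8.34 (dotted). Wnt16 lay between 30.8 and 51.0 on the limb arrays and at or below 3.25 on the skull arrays, whereas the sites overlapped for the other 7.

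Wnt16 was above the absent level on every limb array and on no skull array. On calvaria 1, 2, 3 and 4 its signal was 3.25, 1.79, 2.66 and 2.55. On ulna 1, 2, 3, 4 and 5 it was 51.0, 44.5, 45.7, 30.8 and 31.1. Ulna 4 and 5 were below the median of all scaled signals, 33.8, and the absent level was below their 25th percentile, 10.02. All 4 skull arrays were thus below 8.34, and the lowest limb array was 3.69 times that level and 9.47 times the highest skull array. The mean signal was 40.6 ± 9.17 (SD, n = 5) for limb against 2.56 ± 0.600 (n = 4) for skull, an S:L ratio of 0.0630. The log2 difference was -3.87 ± 0.24 SE (95% interval -4.40 to -3.33, limma adjusted p = 2.54e-05). Because the skull signal is only bounded, the size of the difference depends on the level put in its place. With each skull array set to the absent level, Wnt16 was 4.77-fold higher in the limb, a point estimate without an interval. With the floor at the 25th percentile of all signals, the log2 difference was -1.99. Of the 1042 probe sets called lower, 145 were likewise at or below the absent level on all 4 skull arrays. Ulna 5, the limb array whose tissue field matches its title, lay within the range of the other limb arrays. In whole bone, fewer cells expressing a gene and less of its RNA per cell cannot be told apart.

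The signal of Wnt16 varied among the limb arrays. Ulna 1, 2 and 3 had signals of 44.5 to 51.0, and ulna 4 and 5 of 30.8 and 31.1, so that the highest was 1.66 times the lowest. The summed signal of 14 skeletal muscle markers was 25807, 20600, 13787, 12119 and 10108 on ulna 1 to 5, a 2.55-fold range. In the skull this sum was 755 to 838, with Myh4 and Tnnc2 at or below the absent level on all 4 skull arrays. There 13 of the 14 markers were lower, against 4.31% of all genes at their brightest probe set. The exception was Myh1, a fast myosin, with a mean signal of 399 in the limb and 601 in the skull on probe set 1377720_x_at. This probe set made up most of the skull sum, with 607 of 803 on calvaria 1. Whether it reads Myh1 RNA alone was not tested. The part of muscle RNA in the Wnt16 difference was not tested.

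**Figure D2:**
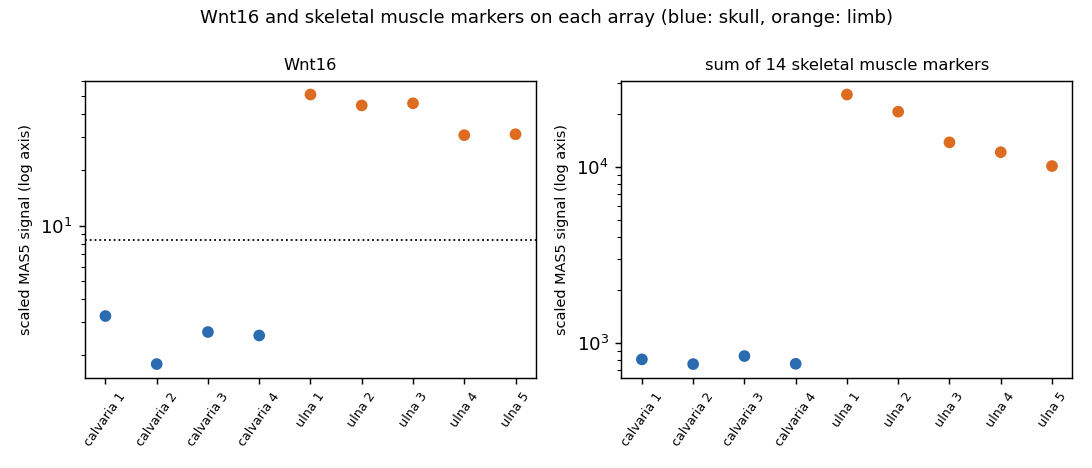
Scaled signal (log axes) of Wnt16, left, and summed signal of the 14 skeletal muscle markers, right, on each of the 4 skull (blue) and 5 limb (orange) arrays, with the absent level of 8.34 dotted on the left. Both are higher on every limb array, and ulna 4 and 5 have the lowest limb values of both.

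Likeness of pattern to Wnt16 was taken as the Pearson correlation of log2 signals over the 9 arrays, as a description. Among 12910 probe sets with a single gene and a site mean at or above the median of all signals, the highest values were those of Cox8b (r = 0.997), a muscle subunit of cytochrome oxidase, Acta1 (0.995), skeletal alpha-actin, Ryr1 (0.994), the calcium release channel of muscle, Sox6 (0.994), a transcription factor of cartilage and red cell development, and Myh7 (0.994), the slow myosin. All 5 passed the signal filter through the limb alone. With Wnt16 below the absent level on every skull array, these correlations are set largely by the step between the 2 sites. With the site means taken out, they were 0.89 (Cox8b), 0.70 (Acta1), 0.67 (Ryr1), 0.73 (Sox6) and 0.68 (Myh7). The 5 genes were picked by their correlation on these same arrays, so these values too only describe. Cox8b had a signal of 533, 440, 244, 173 and 161 on ulna 1 to 5, and at most 3.64 on the skull arrays. Sox6, by contrast, had 50.9 to 64.0 on the limb arrays and 16.7 to 21.2 on the skull arrays, above the absent level at both sites.

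Wnt2, a ligand of vessel and lung development, was measured by 2 probe sets that were not called. Probe set 1386807_at had a signal of 18.8, 12.3, 2.005 and 18.8 on calvaria 1 to 4, and of 12.8, 20.5, 24.4, 19.0 and 11.6 on ulna 1 to 5. Calvaria 3 was at the floor and the other skull arrays lay within the limb range. The log2 difference was -0.73 ± 0.60 SE (95% interval -2.09 to 0.62, limma adjusted p = 0.463), and without calvaria 3 it was -0.06. Probe set 1394361_a_at had signals of 11.7 to 22.5 in the skull and 10.3 to 16.6 in the limb, with a log2 difference of 0.18 ± 0.27. On this probe set calvaria 3 had the highest signal, 22.5, so that the 2 probe sets placed the same array at opposite ends.

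Wnt4 and Wnt5b were above the absent level on all 9 arrays. Wnt4, a ligand of kidney and gonad development that also acts in bone, had signals of 17.6, 26.8, 35.5 and 22.2 on calvaria 1 to 4 and of 21.6, 22.7, 16.8, 15.6 and 26.8 on ulna 1 to 5. The sites overlapped, and the log2 difference was 0.28 ± 0.26 SE (95% interval -0.30 to 0.87, limma adjusted p = 0.516). Wnt5b, a ligand of growth plate chondrocytes, had signals of 76.7, 59.3, 115 and 51.0 on calvaria 1 to 4 and of 114, 122, 74.5, 71.0 and 62.4 on ulna 1 to 5. Calvaria 3, ulna 1 and ulna 2 stood above the rest, and the log2 difference was -0.25 ± 0.28 SE (95% interval -0.89 to 0.39, adjusted p = 0.605).

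Wnt5a, the homologue of Wnt5b, was close to the absent level at both sites. Its signal was 13.6, 8.01, 6.67 and 12.9 on calvaria 1 to 4 and 16.02, 9.99, 14.3, 12.0 and 7.53 on ulna 1 to 5. Calvaria 2, calvaria 3 and ulna 5 were below 8.34. The log2 difference was -0.23 ± 0.32 SE (95% interval -0.97 to 0.50, limma adjusted p = 0.686). Wnt11, a ligand of cell movement in the embryo, was at or near background. Probe set 1395594_at exceeded 8.34 on ulna 3 alone (9.79), with the other arrays between 0.826 and 2.86. Probe set 1397501_at did not exceed it on any array, its highest signal being 7.66 on calvaria 2. Neither probe set was called. Expression of Wnt11 was thus not detectable on 8 or on all 9 arrays, depending on the probe set, and its site difference is not resolved.

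For 4 of the 7 probe sets that were not called, the 95% interval lay within 2-fold in either direction. These were Wnt4, Wnt5a, Wnt5b and the second Wnt2 probe set. For the first Wnt2 probe set a 2-fold difference lay inside the interval, and the 2 Wnt11 probe sets were near background. The smallest unadjusted p among the 7 was 0.251, from limma.

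**Figure D3:**
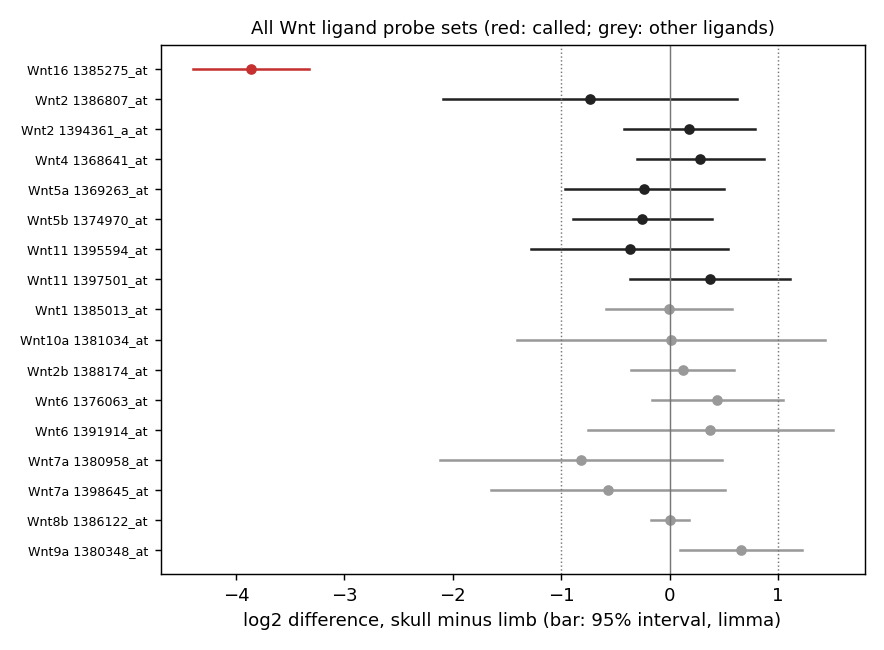
Log2 difference, skull minus limb, of all 17 Wnt ligand probe sets with 95% intervals from limma, with dotted lines at 2-fold. Wnt16, at -3.87, is the only one past the thresholds (red). The rest of the members (black) and the other ligands (grey) lie between -0.82 (Wnt7a 1380958_at) and 0.66 (Wnt9a). Wnt11, Wnt8b, Wnt10a, Wnt6 1391914_at and Wnt7a 1380958_at were not above the absent level on most arrays.

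The other Wnt ligands of the array did not differ by these thresholds. The gene table held 7 of 12 further ligands on 9 probe sets, and none was called. Wnt9a, a ligand of joint and skull development, had the smallest adjusted p, with an S:L ratio of 1.54 and a log2 difference of 0.66 ± 0.25 SE (95% interval 0.09 to 1.22, limma adjusted p = 0.0991). The 2 brightest probe sets were those of Wnt1 (mean signals 39.1 for skull and 40.4 for limb, log2 difference -0.0028 ± 0.26) and Wnt2b (37.8 and 35.0, 0.12 ± 0.21). Of the 9, 4 were above the absent level on all arrays. Wnt8b was at the floor on every array, and its narrow interval reflects the floor.

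Pathway genes that handle, receive or oppose Wnt ligands were read from the same fit. Each gene was taken at its brightest probe set. Over 7 lists, 57 of 75 genes were measured, of which 7 were higher in the skull and 1 lower. Of all 14217 genes taken in the same way, 3.47% were higher and 4.31% lower. Among 7 genes of ligand lipidation, export and deacylation, the glypican Gpc4 was higher (log2 difference 1.62 ± 0.17 SE). The glypican Gpc6 (0.82 ± 0.11), the carrier Wls (0.35 ± 0.13) and Vps35 (-0.30 ± 0.09) were not called. The acyltransferase Porcn was not called at its brighter probe set (0.82 ± 0.17). Its dimmer probe set was not above the absent level on any limb array and was higher in the skull (limma adjusted p = 0.00066). With each limb array set to the absent level, this probe set was 3.21-fold higher. Among 9 Frizzled and LRP receptors, Fzd8 (0.94 ± 0.14, limma adjusted p = 0.00166) was under 2-fold and not called. Lrp5 was higher (1.05 ± 0.16). Its call was lost when calvaria 4 (0.97) or ulna 5 (0.98) was left out, with array weights (0.99), with the replicate block (0.98) and with log2(signal + 16) (0.90). Its second probe set was also higher (1.14 ± 0.16). The 9 non-canonical receptors and polarity genes had a median log2 difference of 0.52. Vangl1 (0.86), Ptk7 (0.64), Ryk (0.62), Daam2 (0.58) and Prickle2 (0.52) were higher at a limma adjusted p below 0.05 but under 2-fold. Celsr2 (-0.04) was near 0. The only gene of this list that was called, the formin Daam1, was lower (-1.05 ± 0.11). It was -0.95 without calvaria 4, -0.99 without median scaling and with quantile normalisation, and -0.98 with log2(signal + 16), each of which ended the call, and its other 2 probe sets were not called (-0.97 ± 0.10 and -0.82 ± 0.61).

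Among secreted antagonists, of 10 measured, Sfrp2 (3.76 ± 0.21), Wif1 (2.06 ± 0.13) and Frzb (1.73 ± 0.16) were higher in the skull on the log2 scale. They are proteins that bind Wnt ligands outside the cell. The 2 probe sets of the osteocyte antagonist Sost differed from each other. The brighter had signals of 123 to 203 for skull and 117 to 148 for limb (log2 difference 0.19 ± 0.15 SE), and the dimmer 8.68 to 18.7 for skull and 0.735 to 18.0 for limb (1.73 ± 0.60, limma adjusted p = 0.0752), where ulna 2 alone was above the absent level in the limb. Neither was called. Of 9 beta-catenin feedback targets, the transcription factor Tcf7 (1.81 ± 0.14) and the cyclin Ccnd1 (1.38 ± 0.12) were higher. Axin2 (-0.06 ± 0.21) and Lef1 (0.09 ± 0.14), commonly used as readouts of beta-catenin activity, were not called, with 95% intervals within 2-fold. None of 6 R-spondins and their receptors was called, the 2 brightest being the receptor Lgr4 (0.97 ± 0.16) and the ubiquitin ligase Znrf3 (0.18 ± 0.22). Lgr4 missed only the 2-fold threshold, with an S:L ratio of 1.98 and a limma adjusted p of 0.00241. Median log2 differences of the lists ranged from 0.01 for the other ligands to 0.82 for lipidation and export.

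**Figure D4:**
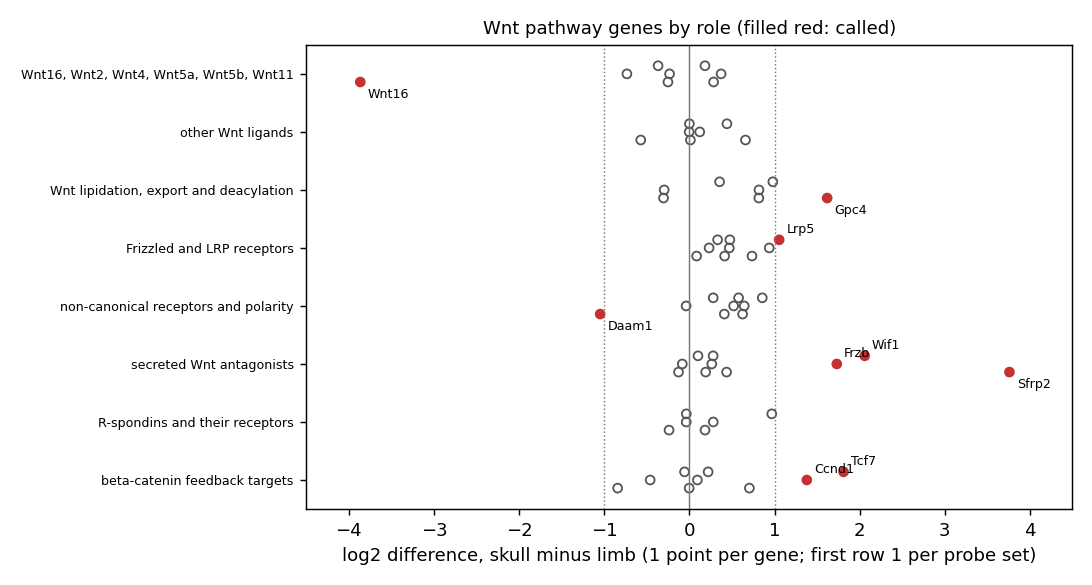
Log2 difference, skull minus limb, of Wnt pathway genes by role, 1 point per gene and, in the first row, 1 per member probe set, with dotted lines at 2-fold. Called genes are filled red and named, with Wnt16 and Daam1 lower in the skull and the 7 others higher, up to 3.76 for Sfrp2.

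The genes beside Wnt16 on chromosome 4 did not share its difference. They were taken by place alone, 3 on each side in the GRCr8 annotation, after the values of Wnt16 were known. Cped1, the nearest gene on one side, was called in the opposite direction. Its signal was 213, 147, 240 and 203 on calvaria 1 to 4 and 100.4, 76.8, 90.1, 77.1 and 97.9 on ulna 1 to 5, without overlap. The S:L ratio was 2.27 and the log2 difference 1.17 ± 0.15 SE (limma adjusted p = 0.000608). Fam3c, the nearest gene on the other side, had a log2 difference of 0.18 ± 0.14 (95% interval -0.15 to 0.51). Ing3 (-0.32), Tspan12 (0.31) and Aass (-0.34) were not called either. Ptprz1 was higher in the skull but under 2-fold, and so not called. Its brighter probe set had 0.63 ± 0.16 (limma adjusted p = 0.0210) and its dimmer 0.83 ± 0.21 (0.0199).

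**Figure D5:**
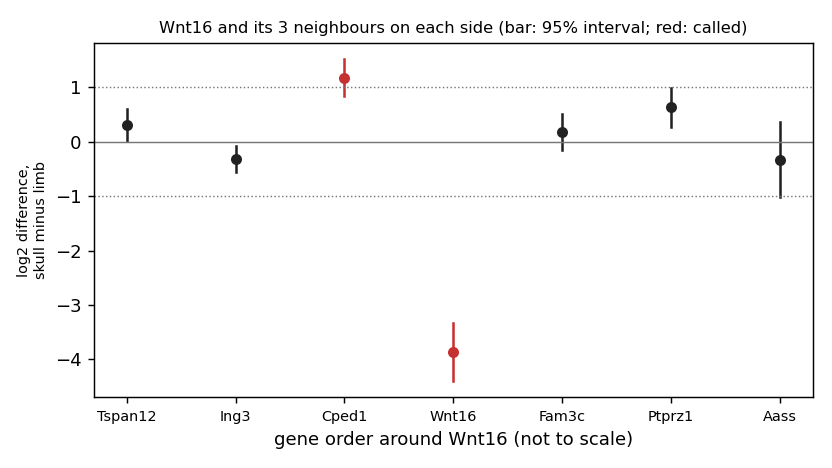
Log2 difference, skull minus limb, of Wnt16 and the 3 nearest genes on each side in annotation order (distances not drawn), with 95% intervals from limma and dotted lines at 2-fold. Wnt16 (-3.87) and Cped1 (1.17) were called, in opposite directions.

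Markers of other cell types were read on the same arrays, at the brightest probe set of each gene. Of all genes taken in this way, 3.47% were higher in the skull and 4.31% lower. Osteoblast markers were bright at both sites (summed signal 30867 to 40090 for skull, 22815 to 31556 for limb), with 2 of 8 higher in the skull. Of 6 osteocyte markers 1 was lower, but their summed signal was higher on every skull array (5387 to 7721 for skull, 4086 to 4878 for limb). It was so without Mepe too (2862 to 4066 and 2355 to 2843). Erythroid markers were lower for 7 of 8 genes (12129 to 12539 for skull, 16560 to 22133 for limb). Cartilage and joint surface markers summed to 110 to 129 and 155 to 274, with 1 of 6 lower, Comp, and with Col9a1 at or below the absent level on all arrays. Nerve and brain markers summed to 163 to 167 and 288 to 400.3, with 1 of 5 lower, Mbp. Adipocyte markers were lower for 3 of 6 genes, with sums that overlapped (1378 to 1864 for skull, 1827 to 2536 for limb). Tendon and periosteum markers were lower for 1 of 5. Endothelial markers had 1 of 6 higher and 1 lower, with a sum higher on every skull array (1255 to 1311 for skull, 995 to 1190 for limb). Without Vwf the sums were 1100 to 1150 and 633 to 721. None of 3 B lineage or 4 keratinocyte and skin markers was called. The nerve difference was that of Mbp, since without it the sums overlapped (45.2 to 67.3 for skull and 37.5 to 61.3 for limb). Without Acan, which was not called, the cartilage sums overlapped only in part (44.4 to 67.4 for skull and 60.01 to 133 for limb). Muscle and erythroid sums were higher on every limb array, also without their most different markers, Acta1 and Ahsp. The part of erythroid RNA in the Wnt16 difference was not tested.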

How the data were processed

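RNA of 9 samples, 4 skull and 5 limb, was hybridised to 1 Affymetrix Rat Genome 230 2.0 GeneChip each after one-cycle labelling. The deposited values are intensities: MAS5 signals, 1 per probe set, on a linear scale. The authors' array software had brought them to a like trimmed mean (100.027 to 100.03 on all arrays). The software version and scaling target are not given in the sources used here. No depth exists for arrays, and their number limits the precision.

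After 57 control probe sets were set aside, each array was divided by its median and multiplied by the mean of the medians (medians 33.0 to 36.6). Signals were floored at the 10th percentile (2.51) and taken to log2, so folds of dim genes are understated. Skull and limb were compared with limma (3.58.1, R 4.3.3; lmFit and eBayes with an intensity trend), adjusted over 31042 probe sets, with no covariate. A call needed an adjusted p below 0.05 and a log2 difference of at least 1. Names came from the platform table, 20826 probe sets having 1 symbol, and were updated by gene identifier (20764 matched). The code was tested on simulated data.

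All probe sets of the members were named, then the called genes of each pathway list (the 2 brightest where none was called), and the 5 genes closest to Wnt16. Other genes named, among them Wnt9a, Wnt8b, Porcn, Wls, Sost, Axin2, Lef1, the neighbours of Wnt16 and single marker genes, were chosen after values were seen, as was the search for CCAAT. The members, lists and rules were chosen with earlier results of these data known. p-values measure the spread between pools. The methods take skull and limb RNA from groups of rats, so the sites may share animals. The labels do not say whether equal replicate numbers mark the same rats. No pairing was fitted, because deviations of same-numbered arrays correlated at most 0.0433, a check that cannot exclude shared rats. Alternatives were other scalings, floors, filters, array weights, a replicate block, the one-way test named in the methods, and each array left out.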

Additional observations from a re-analysis of the deposited data

Results flagged for a closer look

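Of 16 groups (8 probe sets at 2 sites), 4 had 1 array flagged as apart from the others on the floored log2 scale. The rule is set to flag about 1 in 20 by chance, but this rate does not hold where arrays are tied at the floor, as in these 4. All 4 were Wnt11. For probe set 1395594_at they were calvaria 4 (2.86, the others 0.826 to 2.08, below the floor) and ulna 3 (9.79, the others 1.16 to 2.71). For probe set 1397501_at they were calvaria 2 (7.66, the others 1.01 to 1.63) and ulna 3 (2.74, the others 0.690 to 2.55). Except for 9.79, these signals were below the absent level of 8.34, and the floor sets the distance to the other arrays.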

How the results depend on the processing

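Wnt16 was called under all 17 alternatives that tested it, with log2 differences of -3.96 to -1.59 and limma or one-way adjusted p of 2.6e-06 to 0.00507. The smallest sizes came from log2(signal + 16) and from the floor at the 25th percentile (-1.99), which raise the skull value. With dim probe sets left out, Wnt16 was not tested and 0 Wnt ligand probe sets were lower. The count of lower Wnt ligand probe sets was 1 to 1 and of higher ones 0 to 0 with 1 array left out. No other member was called under any alternative. With 1 array left out, Wnt2 1394361_a_at ranged from -0.0089 to 0.305, Wnt11 1395594_at from -0.47 to 0.019 and Wnt11 1397501_at from -0.030 to 0.51, and the sign turned without calvaria 3, ulna 3 and calvaria 2 respectively. Over all probe sets, log2(signal + 16) gave 437 higher and 595 lower in the skull, and leaving out 1 array gave 766 to 927 and 946 to 1118. Lower genes of the pathway lists, 1 in the report, were 0 without median scaling, with quantile normalisation and with log2(signal + 16), and 0 to 2 with 1 array left out (0 without calvaria 4, 2 without ulna 1). Higher ones were 6 to 9. Deviations of arrays with the same replicate number were nearly uncorrelated between the sites (-0.0100 to 0.0433), which does not exclude that they came from the same rats. With the replicate block, which leaves out ulna 5, Wnt16 had a log2 difference of -3.95 (adjusted p = 0.00507), 733 probe sets were higher and 838 lower, and Lrp5 (0.98) lost its call, as it did with array weights (0.99) and log2(signal + 16) (0.90). The depth of signal limits Wnt16 in the skull, Wnt5a and Wnt11, which lay near or below the absent level.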
